A study of Mus musculus with 40 samples.

Results

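The genes described here are 10 members of the hypoxia response: Hif1a and Epas1, which encode the oxygen-regulated HIF-1α and HIF-2α subunits, the prolyl hydroxylase genes Egln1 and Egln3, and the hypoxia targets Vegfa, Adm, Ndrg1, Pfkfb3, Slc2a1 and Ankrd37. They were listed by name from known roles, with earlier results of these data known. Ndrg1 was selected on its measured level in nuclei at 24 h, which was lower after nephrectomy than after sham surgery. All 10 were found among the 28467 genes of the whole-kidney table and among the 32285 genes of the nuclei table. The study followed the right kidney of male C57BL/6 mice, 8 to 12 weeks old, after the left one was taken out (unilateral nephrectomy, UNx) or after a sham operation that left both in place. Whole-kidney RNA came from 6 sham and 6 UNx mice at each of 24, 48 and 72 h, and single nuclei came from 2 sham and 2 UNx mice at 24 h. The labels give every library its own mouse number, and the nuclei mice are not those of the whole-kidney libraries. No transgene, allele or test compound is labelled, and both operations came with isoflurane, saline and buprenorphine, so the groups differ in the kidney removal alone by their labels.

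Cells keep HIF-α subunits low in normal oxygen: the EGLN enzymes hydroxylate them on proline, and the VHL ubiquitin ligase then marks them for destruction. When oxygen falls the hydroxylation slows, HIF-α accumulates, pairs with ARNT and binds DNA at short motifs with the core ACGTG or GCGTG. This control acts on the protein, so transcript levels of Hif1a and Epas1 do not report HIF activity, whereas target transcripts such as those of Vegfa, Adm, Ndrg1 and Egln3 are common readouts of it. In the kidney, HIF-1α is the subunit of tubular epithelium and HIF-2α that of endothelial and interstitial cells.

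The HIF core motif was searched in the 250 bases before the annotated start of each gene (RefSeq, build GRCm38.p6), on both strands and with overlapping matches counted. Windows were held for 8 of the 10 genes, all but Ndrg1 and Epas1, with 2 starts each for Vegfa and Pfkfb3. At least 1 match was found in 9 of these 10 windows. Of all 32851 promoter windows of the same length, 38.6% held at least 1 match and 16.7% held 2 or more. The windows of Egln3, Adm and Vegfa are shown because these are 3 standard targets that differed in number of matches. The matches are in capitals and each window is written on the strand of its gene, 5′ to 3′. They lie at chr12:54203875-54204124 on the minus strand for Egln3, chr7:110627407-110627656 on the plus strand for Adm and chr17:46032378-46032627 on the minus strand for Vegfa.
Egln3: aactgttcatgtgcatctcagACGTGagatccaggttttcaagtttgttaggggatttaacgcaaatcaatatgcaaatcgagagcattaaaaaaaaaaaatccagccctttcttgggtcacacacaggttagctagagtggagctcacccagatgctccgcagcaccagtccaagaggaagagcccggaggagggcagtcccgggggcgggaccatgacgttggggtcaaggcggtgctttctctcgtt
Adm: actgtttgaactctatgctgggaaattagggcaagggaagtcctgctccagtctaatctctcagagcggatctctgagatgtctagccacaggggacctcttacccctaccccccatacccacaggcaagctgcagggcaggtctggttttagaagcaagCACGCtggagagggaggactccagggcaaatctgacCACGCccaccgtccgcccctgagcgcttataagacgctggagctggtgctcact
Vegfa: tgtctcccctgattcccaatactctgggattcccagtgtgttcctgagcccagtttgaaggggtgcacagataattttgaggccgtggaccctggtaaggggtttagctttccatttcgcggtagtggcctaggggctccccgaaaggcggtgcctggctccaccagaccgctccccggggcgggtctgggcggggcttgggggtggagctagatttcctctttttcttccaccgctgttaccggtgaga
Egln3 had 1 match, which starts 229 bases before the annotated start. Adm had 2 matches, both on the opposite strand, at 90 and 54 bases before the start. The Vegfa window had none, and the other annotated Vegfa start had 2, at 218 and 211 bases. That other window overlaps an annotated exon of Vegfa itself by 218 of its 250 bases. A match of these letters is a description of the sequence only.

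The 36 whole-kidney libraries held 14868494 to 24108587 estimated counts each. The labels put all 24 h libraries in batch 1 and all 48 h and 72 h libraries in batch 2, so time and batch cannot be told apart across that step. The 48 h UNx libraries were not alike. In replicates 1 to 5 mitochondrially encoded genes took between 25.8 and 26.4% of counts, against 15.2% in replicate 6 and 14.0 to 15.5% in the 48 h shams. A score over 88 pseudogenes, set to 0 for the mean of the 48 h and 72 h shams and to 1 for the mean of the 24 h shams, was 0.645 to 0.730 in those 5 libraries and 0.006 in replicate 6. At 24 h it was 0.963 to 1.04 in shams and 0.676 to 0.887 in UNx. In the remaining batch 2 libraries mitochondrial genes took 13.6 to 16.1% of counts, and in the 24 h libraries 21.5 to 26.7%. On both measures UNx replicates 1 to 5 at 48 h were thus nearer to the batch 1 libraries than to those of their own labelled batch. How these 5 libraries were handled was not tested, and in every 48 h difference surgery and that unlike profile cannot be told apart. Results at 48 h are therefore given with replicate 6, and with replicate 6 as the only UNx library edgeR called 0 genes. Levels are CPM, the gene's counts relative to the library's TMM-scaled total, which are not corrected for transcript length, so levels are compared between samples and not between genes. In whole-kidney RNA, fewer cells of a type and less RNA per cell cannot be told apart.

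At 24 h, Epas1, Egln1 and Ndrg1 fell after nephrectomy and no member rose. At 48 h, Ndrg1 and Adm rose and Pfkfb3 fell, and at 72 h no member passed the test. A call is an adjusted p below 0.05 in edgeR's quasi-likelihood test, adjusted by Benjamini-Hochberg over all genes. The 3 of 10 members called at 24 h stand against 27.3% of all 14104 genes tested, and the 3 of 10 at 48 h against 32.9% of 14280. Neither share is far from that background. At 72 h 1.71% of 14556 genes were called, and 2 members, Ndrg1 and Egln1, had an unadjusted p below 0.05 in edgeR, as had 17.3% of all genes. DESeq2 and limma voom also called 0 members at 72 h. With the pseudogene score as a covariate, edgeR called 0 members at 24 h and 0 at 48 h, with 78 and 0 genes called in all. The score did not overlap between sham (0.963 to 1.04) and UNx (0.676 to 0.887) at 24 h. At 48 h only UNx replicate 6 lay among the shams. Score and surgery are thus hard to tell apart in this fit, and the lost calls cannot decide whether the members changed. The SEs grew, and the sizes moved unequally: at 24 h the log2 difference became -0.43 for Ndrg1 (SE 0.349), -0.11 for Egln1 (SE 0.182) and -0.08 for Epas1 (SE 0.142), and at 48 h 0.07 for Ndrg1 (SE 0.354), 0.09 for Adm (SE 0.252) and -0.93 for Pfkfb3 (SE 0.381).

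**Figure D1:**
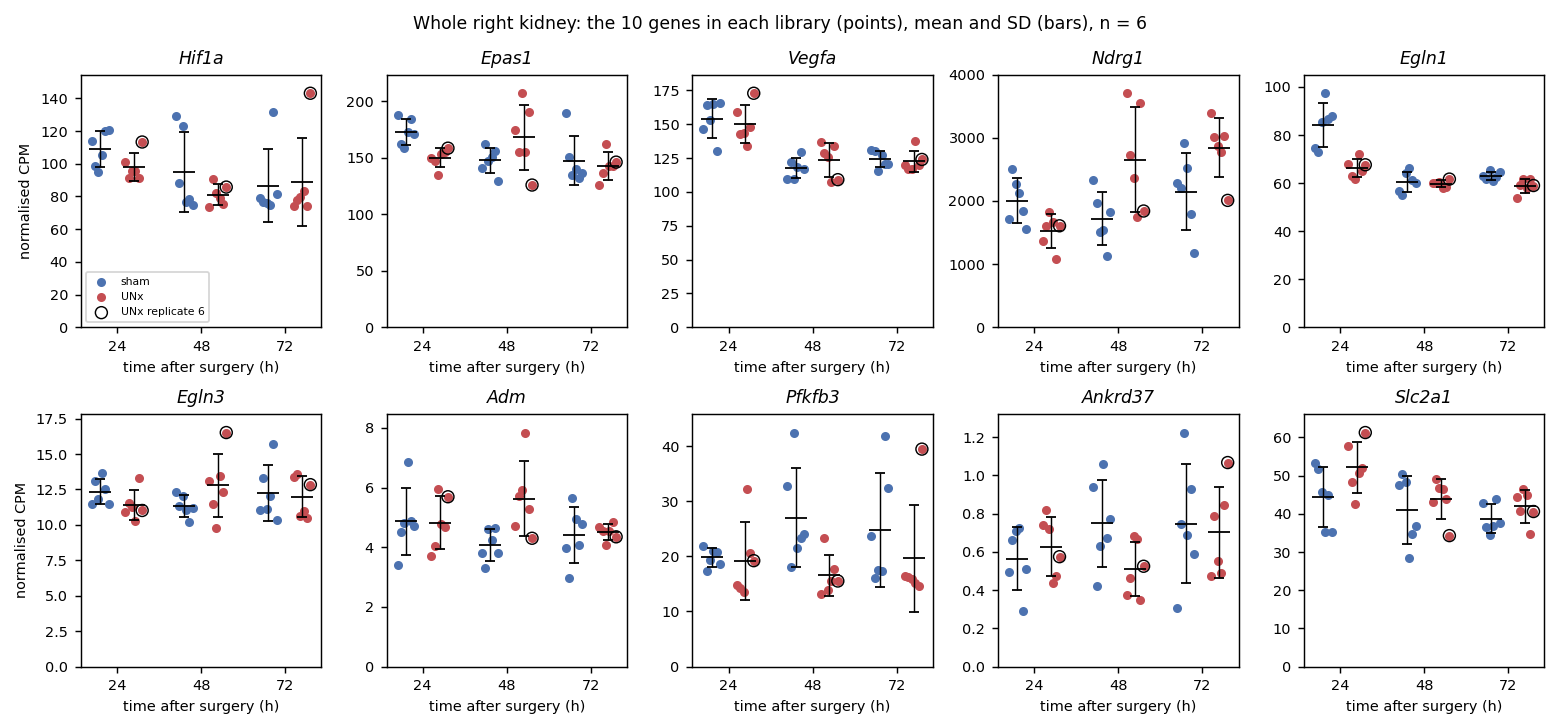
Level of the 10 genes in each of the 36 whole-kidney libraries, as normalised CPM against time after surgery in hours; blue points are sham, red points UNx, a black ring marks UNx replicate 6 of each time, and bars are mean and SD of 6 libraries. The mean of Ndrg1 was lower in UNx at 24 h and higher at 48 h, with groups that overlapped and replicate 6 inside the sham range at 48 h. Vegfa, Egln3 and Ankrd37 also overlapped between groups at all 3 times. Only Epas1 and Egln1 at 24 h were without overlap.

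**Figure D2:**
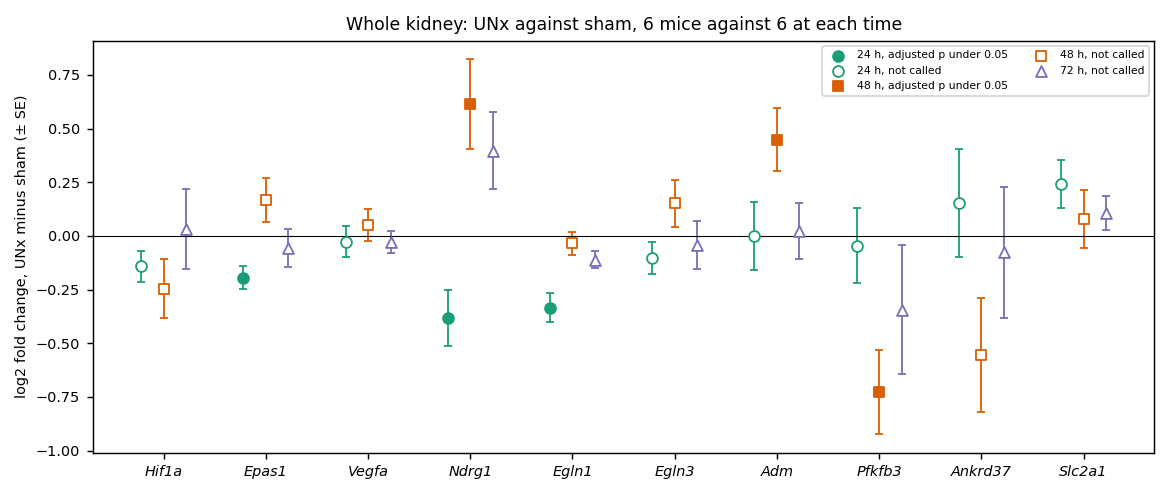
Log2 fold change of UNx against sham with its SE for the 10 genes at 24, 48 and 72 h; filled symbols had an adjusted p below 0.05. Epas1, Egln1 and Ndrg1 lay below 0 at 24 h, Ndrg1 and Adm above 0 and Pfkfb3 below 0 at 48 h, and all 72 h symbols are open.

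Epas1 encodes HIF-2α, the subunit that drives erythropoietin in interstitial cells. Its 24 h levels were 159 CPM at the lowest, 172 at the median and 187 at the highest in sham, and 135, 151 and 158 in UNx, so the groups did not overlap. Non-overlapping ranges were found for 10.3% of all genes at 24 h and for 2 members, Epas1 and Egln1; at 48 and 72 h they were found for 11.2% and 1.95% of genes and 0 members. Epas1 fell by 0.19 on the log2 scale (SE 0.0550, edgeR adjusted p = 0.0169), from 173 ± 11.4 to 150 ± 8.30 CPM (SD, n = 6), and the call held in all 12 fits that left out 1 library (highest adjusted p = 0.0419). At 48 h Epas1 was 148 ± 11.4 CPM in sham and 168 ± 28.9 in UNx, a log2 difference of 0.17 that did not pass (edgeR adjusted p = 0.223). UNx replicate 6 stood at 126 CPM, below every sham, and replicates 1 to 5 at 155 to 207. Without replicate 6, the log2 difference was 0.26 and passed (edgeR adjusted p = 0.0237); from replicate 6 alone it was -0.24 (adjusted p = 0.405). The direction at 48 h was thus not the same in all UNx libraries.

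Hif1a, the gene of the broadly expressed HIF-1α subunit, passed the test at none of the times. At 24 h it was 109 ± 10.9 CPM in sham and 97.9 ± 8.36 in UNx (SD, n = 6), a log2 difference of -0.14 (SE 0.0709, edgeR adjusted p = 0.151). Limma voom called it at 24 h, and so did edgeR without UNx replicate 6 (adjusted p = 0.0488). At 48 h the log2 difference was -0.25 (edgeR adjusted p = 0.181), with UNx replicate 6 at 85.7 CPM, and at 72 h it was 0.03 (edgeR adjusted p = 0.955). Most libraries at these times lay between 73.8 and 90.6 CPM, and 4 stood well above: sham replicates 1 and 3 at 48 h with 129 and 123, sham replicate 5 at 72 h with 132 and UNx replicate 6 at 72 h with 143. These 4 libraries also had high summed CPM of 4 collecting duct principal cell markers (all 4 were in the table), at 611, 635, 574 and 749, and UNx replicate 2 at 48 h had 631 with a Hif1a of 90.6, the highest of its group. The other 31 libraries held 256 to 480 CPM of these markers. In the nuclei, Hif1a was highest in the principal cell class MPC. The part of cell make-up in the Hif1a values was not tested.

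Egln1 encodes PHD2, the main oxygen sensor of the pathway. At 24 h it ran from 72.9 CPM through a median of 86.0 to 97.4 in sham, and from 61.7 through 66.3 to 71.9 in UNx, with no overlap. Egln1 fell by 0.33 on the log2 scale (SE 0.0688, edgeR adjusted p = 0.00267), from 84.1 ± 9.13 to 66.2 ± 3.73 CPM (SD, n = 6). It was the only member that edgeR still called at 24 h when all 36 libraries shared 1 fit, and leaving out any 1 of the 12 libraries kept the call (highest adjusted p = 0.00806). At 48 h the groups did not differ beyond their spread, at 60.5 ± 4.25 CPM in sham and 59.8 ± 1.40 in UNx (log2 difference -0.03, edgeR adjusted p = 0.644), and replicate 6 at 61.7 lay with the rest. At 72 h all 6 UNx libraries were below the sham mean, at 58.8 ± 2.94 against 63.1 ± 1.71 CPM, and the difference of -0.11 did not pass (SE 0.0399, edgeR adjusted p = 0.172).

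Egln3, whose product PHD3 is itself a HIF target and acts as feedback on the pathway, did not pass at any time. It stayed between 9.81 and 16.5 CPM in all 36 libraries. Its log2 difference was -0.10 at 24 h (edgeR adjusted p = 0.330), 0.15 at 48 h (adjusted p = 0.299) and -0.04 at 72 h (adjusted p = 0.895). The highest value of all was that of UNx replicate 6 at 48 h, 16.5 CPM, with replicates 1 to 5 between 9.81 and 13.5.

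Ndrg1, a stress- and hypoxia-induced gene of the NDRG family, was called in opposite directions at 24 and 48 h. At 24 h its levels were 1560 CPM at the lowest, 1989 at the median and 2501 at the highest in sham, and 1077, 1606 and 1825 in UNx. The groups overlapped, but all 6 UNx libraries lay below the sham mean. Ndrg1 fell by 0.38 on the log2 scale (SE 0.130, edgeR adjusted p = 0.0390), from 2004 ± 359 to 1525 ± 265 CPM (SD, n = 6). This call was lost in 6 of 12 fits that left out 1 library (sham replicates 2, 3 and 4, UNx replicates 1, 2 and 5), with values from -0.45 to -0.30 and adjusted p up to 0.0866.

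At 48 h the order was the opposite. Sham ran from 1121 through 1686 to 2328 CPM and UNx from 1740 through 2548 to 3704, and Ndrg1 rose by 0.61 on the log2 scale (SE 0.209, edgeR adjusted p = 0.0373). UNx replicate 6 stood at 1840 CPM, inside the sham range, while replicates 1, 2, 3 and 5 were at 2365 or more and replicate 4 at 1740. Replicate 6 alone against the shams gave 0.09 (adjusted p = 0.918), and the fit without it gave 0.72 (adjusted p = 0.0138). The call was lost in 7 of 12 fits that left out 1 library (sham replicates 3, 4, 5 and 6, UNx replicates 1, 2 and 5), with values from 0.49 to 0.72 and adjusted p up to 0.0915. At 72 h, when all UNx libraries had scores near 0, the medians were 2239 CPM in sham and 2934 in UNx, and the log2 difference of 0.40 did not pass (SE 0.181, edgeR adjusted p = 0.279). There, 5 of 6 UNx libraries lay above the sham mean, and replicate 6 was the lowest at 2008 CPM.

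Vegfa, the endothelial growth factor gene, did not pass the test at any time. Its log2 difference was -0.03 at 24 h (SE 0.0719, edgeR adjusted p = 0.811), 0.05 at 48 h (SE 0.0732, adjusted p = 0.613) and -0.03 at 72 h (SE 0.0511, adjusted p = 0.837). Sham and UNx means were 154 ± 14.2 and 150 ± 13.8 CPM at 24 h, 118 ± 7.62 and 123 ± 12.4 at 48 h (UNx replicate 6 at 109), and 124 ± 6.17 and 123 ± 7.93 at 72 h (SD, n = 6). Both groups were lower at 48 and 72 h than at 24 h, a step that cannot be told apart from the labelled batch.

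Adm encodes adrenomedullin, a vasodilator peptide with a strong hypoxia response. At 24 h the groups did not differ beyond their spread, 4.87 ± 1.11 CPM in sham and 4.81 ± 0.886 in UNx (edgeR adjusted p = 0.996). At 48 h sham ran from 3.29 through 4.02 to 4.65 CPM and UNx from 4.30 through 5.50 to 7.84. Adm rose by 0.45 on the log2 scale (SE 0.147, edgeR adjusted p = 0.0307), with all 6 UNx libraries above the sham mean. Replicate 6 was the lowest UNx library, at 4.30 CPM, and alone gave 0.07 (adjusted p = 0.908). The call was lost in 6 of 12 fits that left out 1 library (without sham replicate 1, 2 or 6 or UNx replicate 2, 3 or 4; adjusted p up to 0.0701). At 72 h Adm was 4.40 ± 0.931 CPM in sham and 4.51 ± 0.270 in UNx (edgeR adjusted p = 0.947).

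Pfkfb3 makes the enzyme that raises fructose-2,6-bisphosphate and so speeds glycolysis. At 48 h its levels were 18.0 CPM at the lowest, 23.7 at the median and 42.5 at the highest in sham, and 13.2, 15.6 and 23.4 in UNx. It fell by 0.73 on the log2 scale (SE 0.196, edgeR adjusted p = 0.0124), and the call held in all 12 fits that left out 1 library, with values from -0.85 to -0.55. Replicate 6, at 15.5 CPM, lay with the other UNx libraries and alone gave -0.81 (adjusted p = 0.418), so here the size did not rest on replicates 1 to 5. The sham libraries with the highest Pfkfb3 at 48 h, replicates 1 and 3 at 32.7 and 42.5 CPM, were those with high Hif1a and high principal cell markers. At 24 h the log2 difference was -0.05 (edgeR adjusted p = 0.871), and UNx replicate 4 at 32.3 CPM stood far above the others, at 13.5 to 20.6. That library also held 632 CPM of 4 adipocyte markers, against 23.5 to 32.8 in the other 5 of its group; without it the difference was -0.26 (edgeR adjusted p = 0.0935). At 72 h the difference was -0.34 (SE 0.299, edgeR adjusted p = 0.606), and it ran from -0.68 without UNx replicate 6 (39.5 CPM; adjusted p = 0.0936) to -0.13 without sham replicate 5 (41.9 CPM; adjusted p = 0.865). The part of these cell types in the Pfkfb3 values was not tested.

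Slc2a1, the gene of the glucose transporter GLUT1, was 44.4 ± 7.79 CPM in sham and 52.2 ± 6.68 in UNx at 24 h (SD, n = 6). The log2 difference of 0.24 had an unadjusted p of 0.0455 and did not pass (SE 0.111, edgeR adjusted p = 0.119). It was 0.08 at 48 h (edgeR adjusted p = 0.678; -0.27 from UNx replicate 6 alone, at 34.3 CPM) and 0.11 at 72 h (adjusted p = 0.521). Ankrd37, an ankyrin repeat gene with a sharp hypoxia response in many cells, was near the lower end of detection at 0.292 to 1.22 CPM, and its log2 differences were 0.15, -0.55 and -0.08 at 24, 48 and 72 h (edgeR adjusted p = 0.691, 0.119 and 0.930), with UNx replicate 6 at 0.524 CPM at 48 h.

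The effect of surgery differed between 48 and 24 h for 3 of 10 members, against 37.0% of 15093 genes, in a fit to all 36 libraries. Ndrg1 had the widest difference, 1.02 on the log2 scale (SE 0.272, edgeR adjusted p = 0.00325), followed by Epas1 with 0.39 (SE 0.124, adjusted p = 0.0129) and Egln1 with 0.33 (SE 0.0775, adjusted p = 0.00111). All 3 calls held in the 24 fits that left out 1 library. Those fits cannot show a shift shared by UNx replicates 1 to 5 at 48 h, whose profile was unlike. In replicate 6 at 48 h, which is 1 library, Epas1 was 126 CPM against 130 in the lowest sham, and Ndrg1 was inside the sham range. Egln1 in replicate 6 lay with the other UNx libraries. With the pseudogene score as a covariate 0 members and 1 gene in all were called, and time and batch cannot be told apart here. Between 72 and 24 h 0 members were called, against 4.15% of genes, with Ndrg1 at 0.80 (edgeR adjusted p = 0.0848) and Egln1 at 0.24 (adjusted p = 0.0653); these 2 had an unadjusted p below 0.05, as had 20.1% of genes, and both DESeq2 and limma voom called them. Between 72 and 48 h 0 members were called, against 14.6% of genes, and 1 member, Adm, had an unadjusted p below 0.05 (difference -0.43, edgeR adjusted p = 0.169), against 28.9% of genes. Both times are labelled batch 2, but UNx replicates 1 to 5 at 48 h stood apart from it as described. DESeq2 and limma voom also called 0 members there.

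The rest of the pathway was described through 5 further gene lists, beginning with glycolysis, which HIF-1 switches on. These lists too were chosen with earlier results of these data known, so their counts beside all genes are descriptions. Of 15 glycolytic genes tested at 24 h, 7 rose and 0 fell, with a median log2 difference of 0.21 against 0.01 over all genes, of which 14.2% rose and 13.1% fell. Eno1, which makes the glycolytic enolase, went from 605 ± 47.5 to 924 ± 81.5 CPM (log2 0.62, edgeR adjusted p = 6.52e-05). Ldha, the lactate dehydrogenase A gene, went from 339 ± 20.3 to 450 ± 23.0 CPM (log2 0.42, adjusted p = 0.000186), and both genes were without overlap. At 48 h 4 of 18 rose and 2 fell, where 16.9% and 16.0% of all genes did. Gapdh and Gpi1, both glycolytic enzyme genes, rose by 0.91 and 0.61 (edgeR adjusted p = 0.000371 and 0.00127), with replicate 6 at 2449 CPM for Gapdh against 3643 to 4536 in replicates 1 to 5, and at 382 for Gpi1 against 597 to 642. Pfkl and Pdk1 fell by 0.25 and 0.23 (adjusted p = 0.0192 and 0.0128), and by 0.31 and 0.06 from replicate 6 alone, neither of which passed. Pfkl makes the liver-type phosphofructokinase, and the kinase made by Pdk1 inhibits pyruvate dehydrogenase.

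Among the HIF partners and oxygen-sensing genes, 2 of 13 rose and 2 fell at 24 h, and 3 of 14 rose and 3 fell at 48 h. Of all genes 14.2% rose and 13.1% fell at 24 h, and 16.9% rose and 16.0% fell at 48 h. At 24 h Siah2, a ubiquitin ligase for the EGLN enzymes, rose by 0.42 (edgeR adjusted p = 0.00417) and Elob, a partner of VHL, by 0.24 (adjusted p = 0.0157). Cited2, which competes with HIF for the coactivator p300, fell by 0.41 (adjusted p = 0.0106), and Ep300, the gene of p300, fell by 0.22 (adjusted p = 0.0321). The Ep300 call was lost in 6 of 12 fits that left out 1 library (sham replicates 5 and 6, UNx replicates 2 to 5; adjusted p up to 0.0772). At 48 h Elob and Egln2, a further prolyl hydroxylase gene, each rose by 0.32 (adjusted p = 0.0246 and 0.00381), with 0.17 and 0.12 from replicate 6 alone. Elob was lost without sham replicate 2 or 3 or UNx replicate 1 (adjusted p up to 0.0562). Vhl fell by 0.53 (adjusted p = 0.00516), from 18.5 ± 1.25 to 12.9 ± 2.93 CPM, with replicate 6 at 18.3 and replicates 1 to 5 at 10.2 to 13.8. Rbx1, a further subunit of the VHL ligase, fell by 0.30 (adjusted p = 0.0232), with replicate 6 at 48.6 CPM and replicates 1 to 5 at 32.2 to 35.8, and the call was lost without UNx replicate 2, 4 or 5 (adjusted p up to 0.0559). For Vhl and Rbx1 the fall was thus that of replicates 1 to 5.

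Of 29 other HIF targets tested, 8 rose and 4 fell at 24 h, where 14.2% and 13.1% of all genes did. Tfrc, the transferrin receptor gene, rose from 88.8 ± 10.9 to 160 ± 20.8 CPM, and Hmox1, the gene of the haem-degrading enzyme, from 21.2 ± 2.74 to 37.0 ± 3.94, each with an edgeR adjusted p of 6.52e-05. Zfp395 and the stanniocalcin gene Stc2 fell by 0.74 and 0.45 (adjusted p = 0.000834 and 0.0138). At 48 h 2 rose and 5 fell, where 16.9% and 16.0% of all genes did. Hmox1 rose again, by 0.72 (adjusted p = 0.000617), and the carbonic anhydrase gene Car12 rose by 0.31 (adjusted p = 0.00821), with 0.37 and 0.21 from replicate 6 alone. Ccng2, a cyclin gene, fell by 0.76 and Ak4, a mitochondrial adenylate kinase gene, by 0.45 (adjusted p = 0.00094 and 0.0171), and replicate 6 was nearer the shams than replicates 1 to 5 for both. At 72 h 1 of 29 was called, against 1.71% of all genes. Bnip3l, a mitophagy gene, fell by 0.23 (SE 0.0436, adjusted p = 0.0186), from 94.8 ± 5.05 to 81.2 ± 2.55 CPM. This call was lost without sham replicate 4 or UNx replicate 5 (adjusted p up to 0.0585). No other list had a call at 72 h.

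Of the receptors for the members' products, 1 of 7 rose at 24 h, and 1 of 7 rose and 3 fell at 48 h. Over all genes 14.2% rose at 24 h, and 16.9% rose and 16.0% fell at 48 h. Calcrl, the adrenomedullin receptor, rose by 0.34 at 24 h (edgeR adjusted p = 0.0212) and fell by 0.84 at 48 h (adjusted p = 0.000445), from 17.1 ± 1.38 to 9.64 ± 1.95 CPM. Its 24 h call was lost when all 36 libraries shared 1 fit. Nrp2, a VEGF co-receptor gene, fell by 0.47 at 48 h (adjusted p = 0.00138). From replicate 6 alone Calcrl was -0.67 and Nrp2 -0.36. The accessory protein gene Ramp3 rose by 0.44 at 48 h (adjusted p = 0.0458), a call lost in 9 of 12 fits that left out 1 library (all but those without sham replicate 2 and UNx replicates 3 and 6; adjusted p up to 0.105), and replicate 6 alone gave 0.22. In the NDRG family, Ndrg2 fell by 0.26 at 24 h (adjusted p = 0.0367), a call lost in 10 of 12 fits (all but those without sham replicate 1 and UNx replicate 4; adjusted p up to 0.0815). Ndrg3 rose by 0.19 at 48 h (adjusted p = 0.0249), lost in 6 of 12 (sham replicates 1, 5 and 6, UNx replicates 1, 4 and 5; adjusted p up to 0.0568), and replicate 6 alone gave 0.08.

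The 16500 nuclei at 24 h came from 4 mice, 5342 and 2641 in sham replicates 1 and 2 and 5151 and 3366 in UNx replicates 1 and 2, with median UMI totals of 7581 to 9909 per nucleus. Replicate 1 of each group is in batch 3 and replicate 2 in batch 4, and 18 barcodes occurred in more than 1 mouse. Cell classes are the authors'. UMIs were summed per class and mouse, and 23 of 30 classes had at least 10 nuclei in every mouse. Markers were held for some of the classes. In both shams PTS1, PTS2 and PTS3 were the 3 highest for proximal tubule markers, and EC1 and EC2 were first for endothelial markers. Also in both, Fib was first for fibroblast and mural markers, ICB and ICA for intercalated cell markers and CPC, CNT and MPC for principal cell markers. Per held 106 and 141 CPM of the fibroblast and mural markers, second in sham replicate 1 but behind ICA (162 CPM) in replicate 2. No markers were held for DTL, ATL, MD, PEC or Uro, whose names were not checked. EC1, an endothelial class, was also first for adipocyte markers in both shams, at 497 and 104 CPM. RNA of the proximal tubule was also present outside its own classes, and far more in batch 4. Over the 20 other classes, the median summed CPM of 6 proximal tubule markers was 274 in sham replicate 1 and 325 in UNx replicate 1, but 3759 and 3524 in the replicates 2; within the proximal tubule classes the medians were 7598 to 10329. Levels of Ndrg1 in other classes followed the same split, with medians of 62.0 and 46.2 CPM in batch 3 and 330 and 151 in batch 4. The part of free RNA in the class levels was not tested, and class levels are given for both batches.

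**Figure D3:**
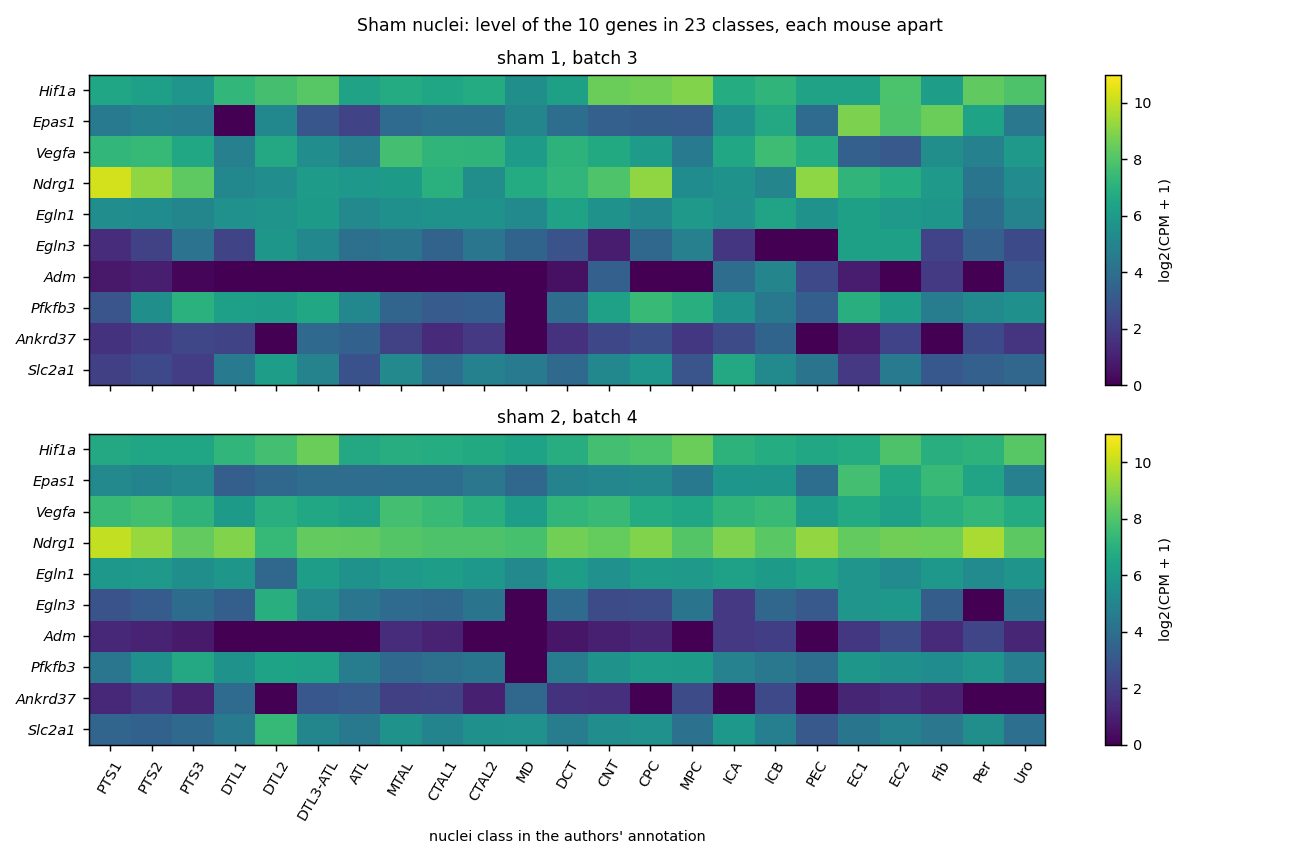
Level of the 10 genes in 23 nuclei classes of each sham mouse, as log2(CPM + 1); the upper panel is sham replicate 1 (batch 3) and the lower panel sham replicate 2 (batch 4). Ndrg1 was highest in PTS1 in both mice, Hif1a in MPC and Epas1 in EC1, and Ndrg1 was higher in most non-proximal classes of the lower panel.

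The HIF subunits had different places in the sham kidney. Hif1a was highest in MPC in both mice, at 483 and 374 CPM, and lowest in MD, at 42.9 and 82.1. CPC and CNT came next in replicate 1 (397 and 371 CPM), and DTL3-ATL and Uro in replicate 2 (366 and 278). Epas1 had the same first 3 classes in both mice, EC1 with 457 and 208 CPM, Fib with 367 and 167 and EC2 with 242 and 93.4, while the median class held 20.3 and 29.1. Among the 23 classes used, the endothelial and fibroblast classes thus held the most Epas1 per UMI. Because they are fewer nuclei, the 3 proximal tubule classes still gave 31.4% of its sham UMIs. For most neighbouring classes in these orders the 2 mice overlapped: 18 of 22 neighbouring pairs for Hif1a and 17 of 22 for Epas1.

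Most Ndrg1 UMIs came from the proximal tubule, 77.1% of them in the shams. PTS1 was first in both shams, at 1231 and 1010 CPM, with PTS2 in the third place at 579 and 634, and PTS1, PTS2 and PTS3 gave 50.2%, 18.6% and 8.36% of its sham UMIs. CPC was second in replicate 1 at 585 CPM. Per was second in replicate 2 at 778 CPM but last in replicate 1 at 18.5, from 12 and 35 nuclei. The genes with the most similar pattern over the 23 classes were Slc13a1 (Pearson r = 0.832), Slc4a4 (0.828) and Snx29 (0.817) of 7389 candidates, with log2(CPM + 1) averaged over the shams; these classes share libraries and free RNA, so the values are descriptions.

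Vegfa was first in MTAL in both mice, at 210 and 208 CPM, with PTS2 at 162 and 200. Podocytes, its textbook source, were left out of the 23 classes because UNx replicate 1 had 2 of them, and their 78 sham nuclei together held 490 CPM. Pcyt2 (r = 0.936), Mgrn1 (0.902) and Chchd3 (0.890) were nearest to Vegfa. Egln3 was led by EC1, EC2 and DTL2 in both mice, with 74.5, 74.2 and 54.8 CPM in replicate 1 and 52.1, 57.1 and 118 in replicate 2, and Esam (r = 0.866), an endothelial adhesion gene, was nearest to it. Egln1 had a median class level of 47.3 and 57.3 CPM, with 13.9 (Per) to 84.0 (ICB) in replicate 1 and 11.8 (DTL2) to 80.3 (PEC) in replicate 2. Pfkfb3 was highest in CPC (169 CPM) in replicate 1 and in PTS3 (97.8) in replicate 2, Slc2a1 in ICA (97.5) and DTL2 (165), and Adm and Ankrd37 reached no more than 31.5 and 13.4 CPM in any class. Epas1 was nearest to Spaar (r = 0.810), Slc43a3 (0.809) and Tgfb1 (0.805).

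After nephrectomy, Ndrg1 in all nuclei was 230 and 203 CPM in UNx, against 483 and 530 in sham. The log2 difference was -1.16 (SE 0.149), and it was -1.03 within batch 3 and -1.27 within batch 4. Since Ndrg1 was picked for this difference, it is a description without a test, as are all UNx against sham values in nuclei. For scale, both UNx mice were below both shams for 10.6% of 19976 genes and above both for 10.7%. In whole kidney at 24 h, from other mice, the Ndrg1 difference was -0.38; the gap between the assays was not tested.

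Class counts use CPM with TMM scaling within the class, and the class levels printed are CPM of the class's UMI total. Of the 23 classes, Ndrg1 was lower in both UNx mice than in both shams in 5 classes, against 10.2% of gene and class pairs. It was 1231 and 1010 CPM in sham PTS1 and 729 and 505 in UNx (log2 -0.81), 579 and 634 against 172 and 198 in PTS2 (-1.70), and 305 and 330 against 53.0 and 127 in PTS3 (-1.82). PTS2 and PTS3 thus had wider differences than PTS1; whether they differ from it was not tested. The others were CPC, at 585 and 486 against 395 and 407 CPM, and CTAL1, at 126 and 239 against 53.1 and 116. In 16 classes Ndrg1 was lower in UNx within both batches, in 7 the batches split, and in 0 it was higher in both. PEC and CNT were among the split ones: PEC had 559 and 593 CPM in sham and 613 and 452 in UNx, and CNT had 247 and 333 against 338 and 211. Proximal tubule marker RNA in the proximal classes was itself lower in UNx within each batch. In PTS1 it was 8926 and 10615 CPM in sham against 7684 and 9456, so the mice overlapped. In PTS2, at 8607 and 10329 against 7598 and 8555, and in PTS3 both UNx mice were below both shams.

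**Figure D4:**
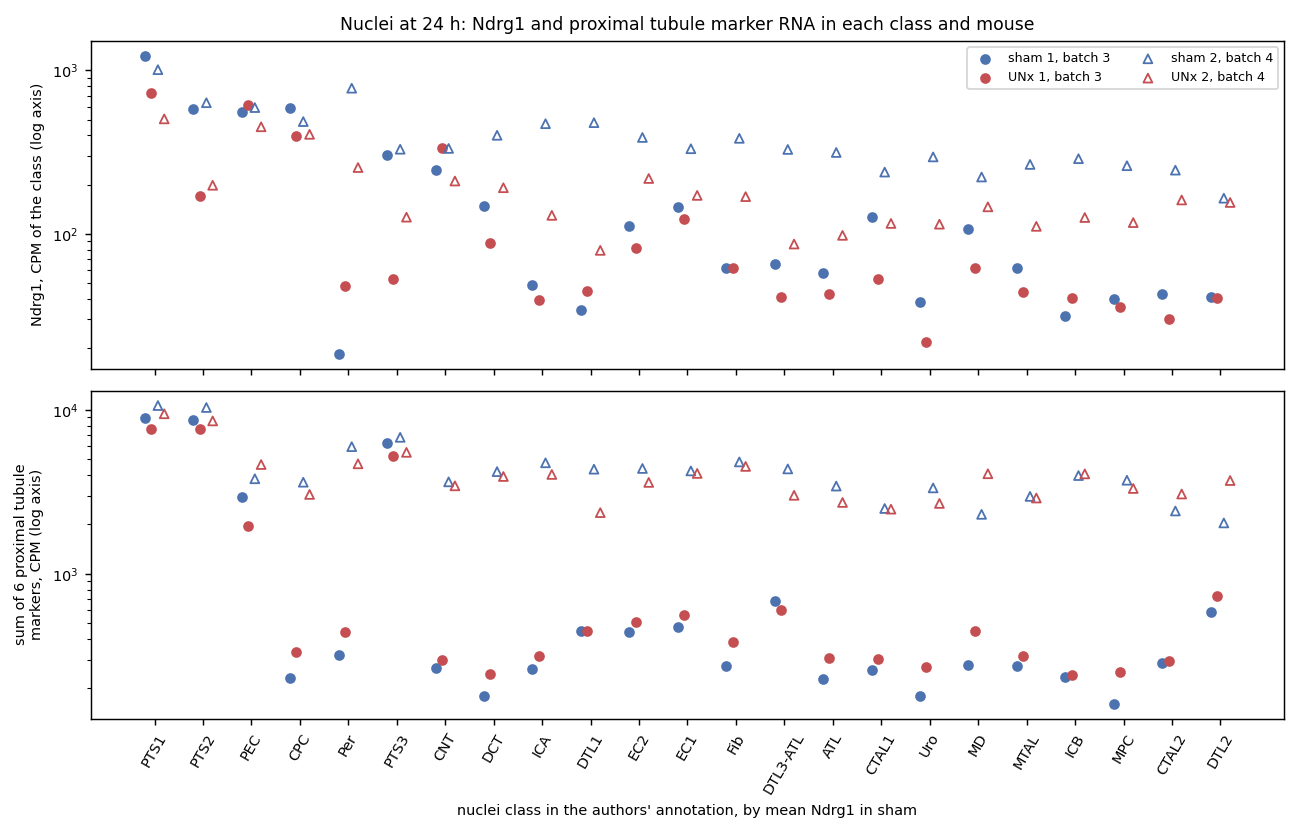
Ndrg1 (upper panel) and the sum of 6 proximal tubule markers (lower panel) in 23 nuclei classes, as CPM of the class on log axes; blue is sham, red UNx, circles batch 3 and triangles batch 4. Ndrg1 was lower in both UNx mice in PTS1, PTS2 and PTS3. Outside the proximal classes the marker sum was higher in the batch 4 mice in every class. So was Ndrg1 in most classes, but not in CPC of the shams or in CNT and PEC of the UNx mice.

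The other members did not follow Ndrg1 in the proximal tubule. Egln3 was 1.67 and 5.95 CPM in sham PTS1 and 7.26 and 14.2 in UNx, 3.49 and 8.21 against 14.9 and 14.7 in PTS2, and 17.2 and 14.0 against 35.9 and 29.0 in PTS3. Each UNx value was above both shams of its class, with log2 differences of 1.56, 1.37 and 1.04. Over all nuclei Egln3 was 12.4 and 13.1 CPM in sham and 18.5 and 19.7 in UNx (log2 0.66, SE 0.222), and it was above both shams in 6 of 13 classes tested, against 9.86% of gene and class pairs. In whole kidney at 24 h its log2 difference was -0.10.

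Pfkfb3 was also higher in UNx nuclei, at 63.0 and 76.0 CPM against 50.2 and 40.4 (log2 0.71, SE 0.225). In PTS2 it was 43.9 and 45.0 CPM in sham and 72.1 and 65.0 in UNx (log2 0.64), and in PTS1 and PTS3 each UNx mouse was above the sham of its batch. UNx replicate 2 also held 55 adipocyte nuclei, against 2 to 6 in the other mice, and these gave 21.6% of its Pfkfb3 UMIs. Epas1 was higher in UNx by 0.44 in PTS2, at 27.5 and 30.0 against 32.2 and 45.2 CPM, and by 0.42 in PTS3, at 24.7 and 35.6 against 35.8 and 44.8; in PTS1, at 22.1 and 35.5 against 34.7 and 37.1, it was above both shams only after TMM scaling. Egln1 was above both shams in PTS3 alone of the proximal classes, at 45.9 and 61.9 against 32.5 and 43.6 CPM. Vegfa overlapped in all 3 proximal classes, for example 154 and 172 CPM in sham PTS1 and 166 and 152 in UNx, and so did Hif1a. Slc2a1 and Ankrd37 were not past both shams in any of the 3 either. Of the 9 members that could be described there, Ndrg1 was the only one lower in both UNx mice. Ndrg1 alone was picked on its fall in these same nuclei, so that contrast with the others follows in part from the choice.

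**Figure D5:**
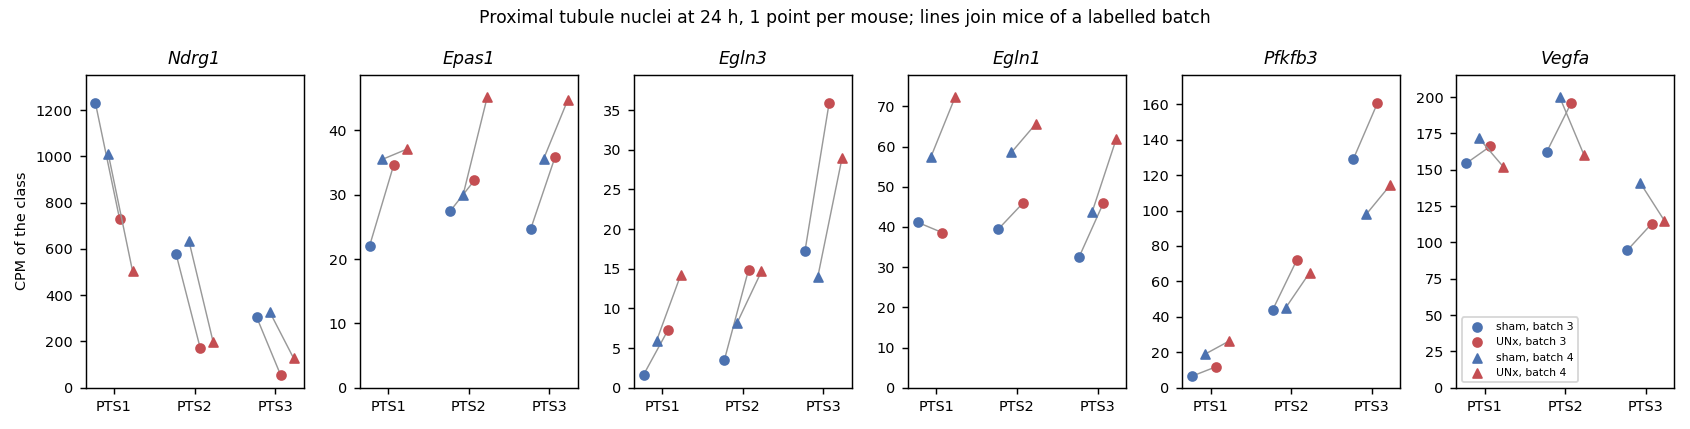
CPM of 6 members in the 3 proximal tubule classes of each mouse at 24 h; blue is sham, red UNx, circles batch 3, triangles batch 4, and lines join the sham and UNx mouse of a labelled batch. Ndrg1 was lower in the UNx mouse of all 6 pairs and Egln3 higher in all 6, while Vegfa went up in batch 3 and down in batch 4.

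Outside the proximal tubule, the loop of Henle class DTL3-ATL had Hif1a at 283 and 366 CPM in sham and 574 and 455 in UNx, and Pfkfb3 at 96.6 and 77.5 against 167 and 130. Slc2a1 was higher in CPC, at 54.7 and 46.4 against 95.7 and 62.4 CPM, so that it was above both shams in 5 of 19 classes and below both in 1, DTL3-ATL, against 9.86% and 10.2% of all gene and class pairs. Vegfa was lower in ICB, at 189 and 171 against 103 and 133 CPM, and was below both shams in 3 of 22 classes and above both in 0. Epas1 was below both in 3 of 16 classes, Per, ICA and Uro, and above both in 3, the proximal tubule ones. Egln3 in DTL2 was lower, at 54.8 and 118 against 40.7 and 18.6 CPM, from 11 to 50 nuclei a mouse. In all nuclei Hif1a, Vegfa and Epas1 had log2 differences of 0.07, 0.00 and 0.17 and Egln1 and Slc2a1 0.32 each, with SEs of 0.146 to 0.363. Epas1 and Egln1 had both fallen in whole kidney at 24 h, in other mice, so their falls were not seen over all nuclei. The unlike sign between the assays was not tested. Adm gave 39 to 72 UMIs per mouse and could be described in 0 classes, and Ankrd37 gave 67.5 to 136 and could be described in 4.

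The classes are not independent of surgery. In the deposited form with 33 classes, all 3 proximal tubule classes are split. The class named PTS1 held 945 and 522 sham but 14 and 61 UNx nuclei, while the class named UNx PTS1 held 14 and 16 sham and 756 and 369 UNx nuclei. Ndrg1 in sham and UNx nuclei of the latter was 666 and 709 against 723 and 549 CPM. In the class named PTS1 it was 1238 and 1017 CPM in sham against 1138 and 374 in UNx. PTS2 held 657 and 323 sham but 0 and 3 UNx nuclei, UNx PTS2 2 and 1 against 699 and 403, PTS3 498 and 204 against 0 and 3, and UNx PTS3 4 and 7 against 502 and 453. Neither PTS2 nor PTS3 can therefore be compared in that form, and the differences given for them above are between nuclei that the authors' finer form puts in separate classes. Ndrg1 was lower in both UNx mice in 2 of the 22 classes that can be compared there, CPC and CTAL1. Of the further lists, 17 of 18 glycolytic genes had a positive log2 difference over all nuclei (median 0.27), though for 14 of the 18 it was smaller than its SE. Positive too were 18 of 30 other HIF targets (median 0.13), 10 of 14 partners (median 0.06) and 3 of 3 NDRG family genes (median 0.07). Of the receptors 3 of 8 were positive (median -0.09). Over all genes the median was -0.01 and 47.9% were positive. The difference was smaller than its SE for 21 of the 30 targets, 12 of the 14 partners, 7 of the 8 receptors and all 3 NDRG family genes.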

How the data were processed

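Poly-A whole-kidney RNA (36 libraries, stranded kit, 150 bp paired ends) and DAPI-sorted nuclei (4 mice, 10x 3' kit) were measured. The deposited whole-kidney table holds the authors' estimated counts per gene, not normalized; Salmon 1.5.0, FastQC 0.11.8, R 4.10 and the build GRCm39 are listed in the submitters' processing notes. The deposited nuclei table holds the authors' estimated counts of UMIs; the same notes list Seurat, alevin and mm10. Versions for the nuclei tools, the nucleus filter and any doublet removal: not given in the sources used here. Doublets were not called. Salmon shares reads among similar transcripts: 34.1% of whole-kidney values were not whole and were rounded. Of 28467 genes, 127 had no name.

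Groups, times, batches and replicate numbers came from the labels. For each time, edgeR 4.0.16 (R 4.3.3; filterByExpr, TMM, glmQLFit and glmQLFTest) compared 6 UNx with 6 sham libraries; differences between times used 1 fit to all 36. P-values were adjusted by Benjamini-Hochberg over all genes, with calls at 0.05. SEs are the log2 fold change over the root of F. CPM were scaled over all 36 libraries. Nothing in the labels says more of the replicates than separate mouse numbers. The fits were tested on simulated counts with known changes.

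Nuclei UMIs were summed per class and mouse and fitted by edgeR in the same way, as a description. In the nuclei the replicate number is the labelled batch in both groups and so pairs the mice; the log2 difference of Ndrg1 was -1.15 with the pairing as a block and -1.16 without. The whole-kidney replicate numbers did not pair the samples.

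The 10 genes, the other lists and the markers were chosen with earlier results of these data known. Named beyond the 10 were the up to 2 called genes with the largest rise and the up to 2 with the largest fall per list and time (mean log2 CPM of at least 1), and for 4 members the 3 genes with the highest r over classes. Alternatives were DESeq2 1.42.0, limma voom 3.58.1, DESeq2 size factors, no filter, counts without mitochondrial genes, 1 fit for all libraries, a replicate block, the pseudogene score as a covariate, and leaving out each library. Promoter windows are RefSeq's, build GRCm38.p6.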

Additional observations from a re-analysis of the deposited data

Results flagged for a closer look

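In 6 of 60 sets of 6 libraries (10 genes in 6 groups), 1 library lay far from the rest, by Dixon's gap test at its 95% level; chance gives about 1 in 20. Epas1 was 189 CPM in sham replicate 1 at 72 h, with the next at 151. Hif1a was 132 CPM in sham replicate 5 at 72 h (next 81.7) and 143 in UNx replicate 6 at 72 h (next 83.2). Pfkfb3 was 32.3 CPM in UNx replicate 4 at 24 h (next 20.6) and 39.5 in UNx replicate 6 at 72 h (next 16.4). Vegfa was 138 CPM in UNx replicate 4 at 72 h (next 124).

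The effect of surgery differed between 48 and 24 h for Ndrg1 (1.02 on the log2 scale), Epas1 (0.39) and Egln1 (0.33), by the term for that difference in edgeR's test. In these differences surgery and the unlike profile of UNx replicates 1 to 5 at 48 h cannot be told apart.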

How the results depend on the processing

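With the pseudogene score as a covariate, members called went from 3 to 0 at 24 h (78 genes in all) and from 3 to 0 at 48 h (0 genes). For 48 against 24 h they went from 3 to 0 (1 gene), and 88 genes were called at 72 h, against 249. At 24 and 48 h the score largely went with surgery, so the lost calls there decide nothing. The cause at 72 h was not tested. Of the further list genes named at 24 h, Eno1, Tfrc and Hmox1 kept their calls with the score. Siah2, Elob, Ldha, Zfp395, Stc2, Calcrl and Ndrg2 lost theirs, as did Bnip3l at 72 h. The 24 h differences then were 0.17 for Hif1a, 0.30 for Vegfa, 0.59 for Adm, 0.16 for Pfkfb3, -0.11 for Ankrd37, 0.026 for Cited2 and 0.0031 for Ep300. The 48 h ones were -0.22 for Epas1, -0.10 for Vegfa, 0.017 for Egln1, -0.34 for Slc2a1, 0.12 for Rbx1 and 0.10 for Ak4. The difference between 48 and 24 h was -0.11 for Epas1, that between 72 and 48 h 0.15 for Ndrg1, and Ankrd37 at 72 h was 0.29. UNx replicate 6 as the only UNx library at 48 h gave 0 members and 0 genes called, with -0.24 for Epas1, -0.12 for Vegfa, 0.015 for Egln1, -0.27 for Slc2a1, 0.13 for Rbx1 and 0.059 for Ak4; this lone library is assumed to vary like the shams. One fit to all 36 libraries called 1 member, Egln1, at 24 h, and in it the 24 h calls of Calcrl and Ep300 were lost. For 72 against 24 h DESeq2 called 2 members and limma voom 2. Genes called at 72 h were 673 with DESeq2 and 809 with limma voom, for 72 against 24 h 952 and 1849 against 626, and for 72 against 48 h 4031 with limma voom against 2210. Without the filter Adm at 24 h was 0.0044, and limma voom gave -0.0027 for Hif1a at 72 h. The 33-class form gave 2 classes with lower Ndrg1, against 5. It divides PTS2 and PTS3 by surgery, so neither enters that count. PTS1 enters it as PTS1 and UNx PTS1, and in neither was Ndrg1 lower in both UNx mice.

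The whole-kidney replicate numbers did not pair the samples: over 18 pairs, r ran from -0.349 to 0.139, 4 were over 0.1 and 1 was highest with its own number. A replicate block called 1 member, Ndrg1, for 72 against 24 h, gave 0.0042 for Adm at 24 h and called 120 genes at 72 h.

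Leaving out 1 library, members called ran from 2 to 4 at 24 h, 1 to 4 at 48 h (1 without sham replicate 6 or UNx replicate 2), 0 to 1 for 72 against 24 h and 0 to 1 for 72 against 48 h. Differences that changed sign ran from -0.089 to 0.12 for Adm, -0.26 to 0.037 for Pfkfb3 and -0.073 to 0.0016 for Vegfa at 24 h, from -0.0083 to 0.16 for Slc2a1 at 48 h, and at 72 h from -0.064 to 0.11 for Adm, -0.25 to 0.11 for Ankrd37, -0.087 to 0.045 for Egln3, -0.094 to 0.030 for Epas1 and -0.17 to 0.19 for Hif1a. Ndrg1 in nuclei ran from -1.29 to -1.01. Of 1361 alternative values for 64 results, 1193 kept direction and side of the threshold.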
